A study of Homo sapiens with 36 samples.

Results

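Long intergenic non-coding RNAs (lincRNAs) with a LINC symbol were followed through a depletion of DIS3 in HCT116 cells, a human colorectal carcinoma line. The members were the 300 genes whose current symbol consists of LINC and a number only and whose raw counts, summed over the 12 chromatin and 12 cytoplasm total RNA libraries, were highest. They were chosen among 2229 such genes in the tables, of which 404 had no count, and among 59607 features in all. The values that chose them are levels, which are therefore given as a description: the ranking began with LINC02832 at 835293 counts and LINC00511 at 605586, had a median of 4806.5, and closed with LINC02894 (1230 counts), LINC02341 (1196) and LINC02739 (1195), while LINC01389 (1190), LINC01063 (1184) and LINC00189 (1161) fell just outside it. Chromatin libraries supplied 83.8% of the counts behind this ranking. Of the 300 members, 289 would also be chosen from the untreated control libraries alone.

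In each of 3 data sets 4 groups of 3 libraries were compared, 36 libraries in all. DIS3-AID cells carry an auxin-inducible degron (AID) on DIS3, introduced by CRISPR, and are 1 clone; they were taken after 1 h in 500 uM auxin or without auxin. The control line, taken with the same auxin treatment or without it, lacks the degron. Both lines express TIR1, the plant receptor that links auxin-bound degrons to a ubiquitin ligase, and both were grown in McCoy's 5A Modified medium with 10% FBS. Ribosomal RNA-depleted total RNA came from the cytoplasmic and the chromatin fraction, and polyadenylated RNA (polyA RNA) from the cytoplasmic fraction. The series text calls the cytoplasmic triplicates technical, so p-values measure the spread between these libraries only.

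DIS3 is the catalytic subunit of the nuclear RNA exosome, a multi-subunit complex that degrades RNA in the 3′ to 5′ direction, and it carries an exoribonuclease and an endonuclease activity. In human nuclei the exosome removes short-lived transcripts such as promoter upstream RNAs, enhancer RNAs and the prematurely ended products of RNA polymerase II, with the helicase MTREX and its adaptor complexes NEXT and PAXT recruiting substrates. LincRNAs are transcribed by RNA polymerase II from their own promoters, are capped and in many cases spliced and polyadenylated, and are as a class less efficiently spliced and more often retained in the nucleus than mRNAs.

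Most members were multi-exon genes. By the GENCODE 29 annotation on hg38, 236 had 3 or more exons in at least 1 transcript, 41 had 2 and 23 had 1. The genes spanned 777 to 747566 bases with a median of 28087, and their merged exons covered a median of 2124 bases. The start of the nearest protein-coding gene lay at a median distance of 59260.5 bases. In 39 members some exon bases were shared with another gene on the same strand, so that reads there cannot be assigned to 1 of the 2, 9 lay within an intron of a gene on the same strand, and 18 of the rest started within 2 kb of a protein-coding gene on the opposite strand (divergent members). Another 67 had exons facing exons of the opposite strand, a count that may overlap the classes above; both library kits keep strand, and the strand setting of the counting is not given in the sources used here.

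Promoters are shown for 4 members that were higher after auxin in DIS3-AID cells in all 3 data sets, taken in order of their smallest rise among those with a RefSeq promoter entry; a promoter was found for 188 of the 300 members. Each runs from 250 bases before to 50 after a RefSeq start (build GRCh38.p14), 5′ to 3′ on the gene's strand. Capitals mark the letters GGGCGG, the core of the GC box, and CCAAT, the core of the CCAAT box, on either strand, with adjacent or overlapping matches run together; TATAAA was also searched and had no match in these 4. LINC02939 lies at chr22:46070972-46071271 on the minus strand, 1130 bases from the GENCODE 29 start, LINC01003 at chr7:152463874-152464173 on the plus strand, 338 bases from it, LINC01424 at chr21:44801991-44802290 on the plus strand, 336 bases from it, and LINC02983 at chr7:5428878-5429177 on the minus strand, at the same base.
LINC02939: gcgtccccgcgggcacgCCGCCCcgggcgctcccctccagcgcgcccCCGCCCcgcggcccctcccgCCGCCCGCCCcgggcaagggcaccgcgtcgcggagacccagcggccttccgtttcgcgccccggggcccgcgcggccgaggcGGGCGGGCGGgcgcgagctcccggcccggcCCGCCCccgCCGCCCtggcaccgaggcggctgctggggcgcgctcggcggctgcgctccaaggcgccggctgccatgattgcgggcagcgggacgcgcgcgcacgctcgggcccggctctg
LINC01003: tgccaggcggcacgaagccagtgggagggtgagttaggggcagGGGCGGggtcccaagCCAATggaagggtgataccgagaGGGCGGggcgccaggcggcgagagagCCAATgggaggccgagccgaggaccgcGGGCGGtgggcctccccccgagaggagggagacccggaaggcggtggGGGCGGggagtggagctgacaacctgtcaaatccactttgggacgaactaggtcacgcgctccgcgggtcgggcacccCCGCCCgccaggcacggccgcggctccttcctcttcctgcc
LINC01424: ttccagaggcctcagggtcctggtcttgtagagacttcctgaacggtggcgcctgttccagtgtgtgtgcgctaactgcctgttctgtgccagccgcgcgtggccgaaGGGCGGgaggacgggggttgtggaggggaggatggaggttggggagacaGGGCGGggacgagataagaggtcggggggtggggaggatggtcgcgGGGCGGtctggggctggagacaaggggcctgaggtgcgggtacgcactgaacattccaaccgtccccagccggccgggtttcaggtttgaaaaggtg
LINC02983: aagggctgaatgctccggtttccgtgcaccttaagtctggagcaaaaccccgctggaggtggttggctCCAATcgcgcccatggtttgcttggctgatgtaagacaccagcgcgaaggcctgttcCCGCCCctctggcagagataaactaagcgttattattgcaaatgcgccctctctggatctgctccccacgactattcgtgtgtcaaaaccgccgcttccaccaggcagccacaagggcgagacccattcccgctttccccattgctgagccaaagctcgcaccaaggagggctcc

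The GC box had 8 matches in the promoter of LINC02939, 5 in that of LINC01003, 3 in that of LINC01424 and 1 in that of LINC02983, and the CCAAT box had 2 matches in LINC01003 and 1 in LINC02983. Over promoters of the same length, GGGCGG was found in 51.9% of the 79 with an entry among members that were higher in cytoplasm total RNA, in 25.5% of the 98 among members tested there and not called, and in 44.9% of all 34943 promoters of the table. The median GC content was 61% in the 79, 49.2% in the 98 and 58.7% in all. CCAAT went the other way, with 31.6% of the 79, 49% of the 98 and 34.7% of all, and TATAAA was found in 13.9%, 13.3% and 11.6%. A letter match is a description of the sequence, not a binding site.

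The 3′ ends of 3 of these members are shown for their bearing on the polyA libraries, as the closing 60 bases of the longest GENCODE 29 transcript, with the polyadenylation signal AATAAA or its variant ATTAAA in capitals. They lie at chr22:46067356-46067415 (minus strand), chr7:152465490-152465549 (plus) and chr7:5426277-5426336 (minus), all in hg38.
LINC02939: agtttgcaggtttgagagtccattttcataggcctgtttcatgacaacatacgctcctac
LINC01003: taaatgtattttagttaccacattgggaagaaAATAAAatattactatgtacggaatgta
LINC02983: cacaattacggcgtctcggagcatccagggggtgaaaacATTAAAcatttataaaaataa

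Neither signal stood in the window of LINC02939. Over the 300 members, 57.7% of such windows held AATAAA or ATTAAA, against 46.3% of those of 15219 other lncRNA genes. The share was 63.3% among the 49 members that were higher in polyA RNA, 61.3% among the 160 tested there and not called, and 48.4% among the 91 whose counts were too low to be tested.

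Library totals lay between 59450421 and 122574347 counts in cytoplasm total RNA, between 50278746 and 139011514 in chromatin total RNA and between 25859633 and 33068609 in polyA RNA. Of the 300 members, 291, 300 and 209 had enough counts to be tested in these sets; 6, 1 and 8 of them reached the minimum only through the auxin-treated DIS3-AID libraries, and 2, 0 and 3 of these were called higher. Levels are in CPM, the usual unit of counts relative to the library total, here with totals scaled by edgeR's trimmed mean of M values (TMM), differences are on the log2 scale, and a gene was called at an adjusted p under 0.05 in edgeR's quasi-likelihood test over all features. DIS3 mRNA averaged 45.8 ± 0.94 CPM in auxin-treated and 50.1 ± 2.63 CPM in untreated DIS3-AID cytoplasm, against 93.1 ± 3.21 CPM in auxin-treated and 90.5 ± 2.58 CPM in untreated control cytoplasm (SD, n = 3 each); the degron acts on the protein, so this RNA does not show the depletion. The colon epithelial markers EPCAM, CDH1, KRT8, KRT18, CLDN4 and CDX2 had medians of 2.23 CPM or more in both total RNA sets and VIL1 lay near 0; 4 of 5 fibroblast markers had medians under 0.1 CPM, COL1A1 being the exception at 12.7 CPM on chromatin, the 5 blood markers had medians of 0.141 CPM or less, and the neuronal gene SYT1 had a median of 892 CPM on chromatin, with RBFOX3 at 1.02. The nuclear RNAs MALAT1, NEAT1 and KCNQ1OT1 summed to at least 3582 CPM on chromatin and at most 1042 CPM in cytoplasm. These are bulk libraries, so fewer cells with an RNA and less of it per cell cannot be told apart.

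In cytoplasm total RNA, auxin raised many LINC members in DIS3-AID cells and lowered few. The members together took 0.168% to 0.175% of the counts in auxin-treated DIS3-AID libraries, against 0.109% to 0.114% in untreated ones. In control cytoplasm the ranges were also apart, at 0.104% to 0.107% with auxin and 0.0995% to 0.103% without. Of the 291 members tested, 123 rose and 4 fell, beside 21.1% of all features that rose and 13.2% that fell. The rises reached 2-fold in 69 members, beside 14.8% of all features, and no fall did, beside 0.0912%. The median log2 change was 0.33 over the members and -0.05 over all features. In 120 of the 123 the auxin-treated libraries all lay above the untreated ones, beside 20.7% of all features, and they were apart in all 4 falls, beside 11.7%.

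In control cytoplasm no member was called in either direction after auxin, beside 0.0217% of all features that rose and 0.0261% that fell. The members' median log2 change was 0.05. In edgeR 21 of the 291 members had an unadjusted p under 0.05, beside 1413 of 23027 features. DESeq2 called 4 members, and edgeR with the replicate number as a block, which pairs libraries here, called 3 as higher and 1 as lower. The change with auxin was also compared between the lines, and DIS3-AID less control was positive past the threshold in 95 members and negative in 3, beside 16.1% and 3.31% of all features. It was positive in 94 of the 123 that rose. LINC02989 (4.77), LINC02939 (3.36), LINC01460 (3.32), LINC02004 (3.07) and LINC01800 (2.91) had the largest values, and LINC02728 (-0.84), LINC01619 (-0.79) and LINC00888 (-0.36) were the 3 negative ones. LINC02728 and LINC00888 missed the threshold with library sizes alone (adjusted p 0.085 and 0.16), without the low-count filter (0.074 and 0.092) and in 10 of the fits that leave out a library each (up to 0.13 and 0.15); LINC02728 also missed it with DESeq2 (0.093).

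**Figure D1:**
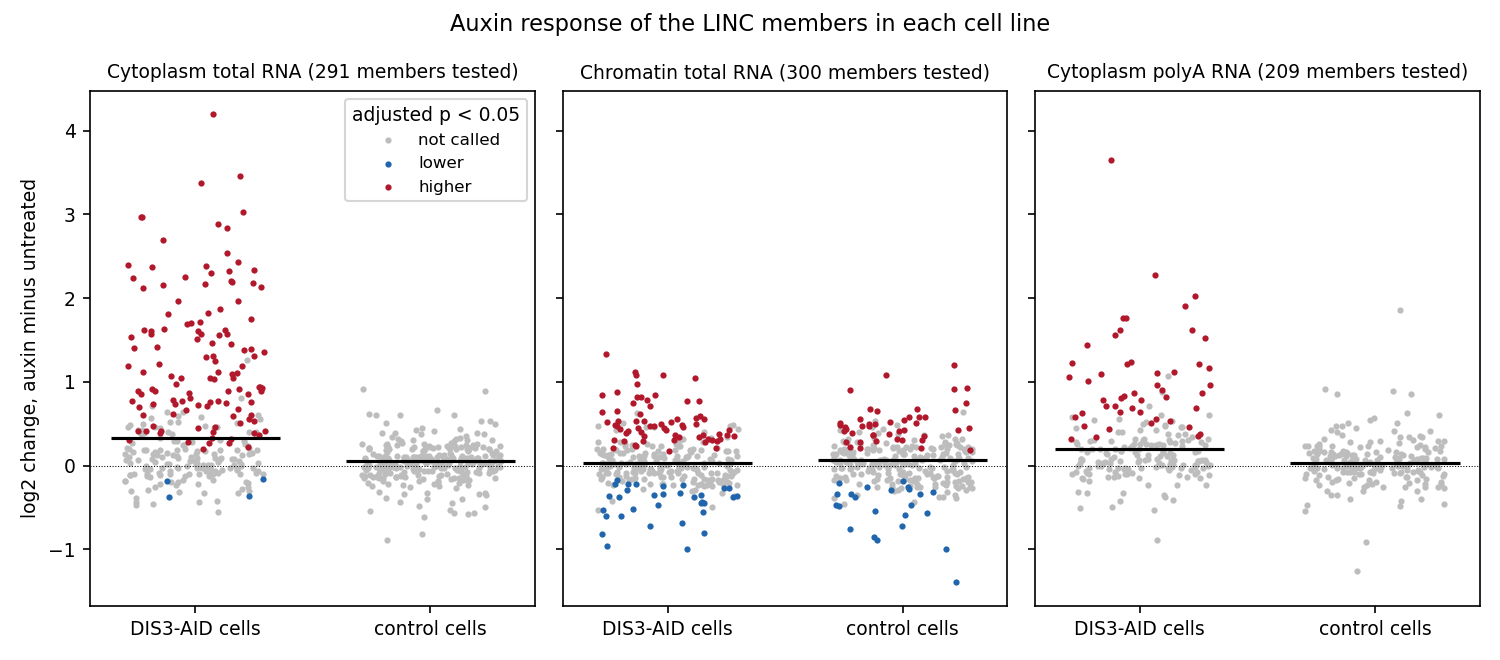
The log2 change with auxin of each tested LINC member is plotted for DIS3-AID cells (left in each panel) and control cells (right) in the 3 data sets. Red points were called higher and blue points lower at an adjusted p under 0.05, and black bars are medians. In cytoplasm total RNA the red points of DIS3-AID cells reach 4.20, and control cells have no coloured point.

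The largest rise was that of LINC02989 (chr11:12086891-12089441, plus strand, 2 exons), which had 1.56, 1.39 and 1.15 CPM in auxin-treated and 0.0909, 0.0968 and 0.027 CPM in untreated DIS3-AID libraries. Its log2 change was 4.20 ± 0.28 (SE, adjusted p = 3.4e-10), from a low level: control libraries had 0.175, 0.109 and 0.152 CPM with auxin and 0.252, 0.199 and 0.198 CPM without. All 3 auxin-treated DIS3-AID libraries lay above the 9 others. No function is given for LINC02989 in the sources used here.

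LINC02939 (chr22:46067356-46069891, minus strand, 3 exons), whose promoter is shown above, had 10.3, 9.68 and 9.73 CPM in auxin-treated and 1.10, 0.702 and 0.890 CPM in untreated DIS3-AID libraries. Its log2 change was 3.46 ± 0.12 (SE, adjusted p = 6.8e-14). The control libraries stayed between 0.658 and 0.892 CPM. LINC02004 (chr3:134313576-134321171, plus strand), an RNA of only 294 annotated exon bases, had 4.69, 5.21 and 5.35 CPM with auxin and 0.591, 0.387 and 0.485 CPM without, a log2 change of 3.37 ± 0.15. Both genes were therefore near or under 1 CPM without auxin and at several CPM with it. The largest changes in DIS3-AID cells were named only where treated and untreated libraries did not overlap, so the gap is no further support.

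LINC00880 (chr3:157081667-157123004, minus strand) faces LINC02029 on the opposite strand and had 11.3, 11.2 and 11.6 CPM with auxin against 1.34, 1.27 and 1.75 CPM without, a log2 change of 2.97 ± 0.10; LINC02029 rose by 2.49 ± 0.28. LINC01764 (chr19:15827045-15835853, minus strand) faces UCA1, a lncRNA first described in urothelial carcinoma, and had 8.20, 7.54 and 7.26 CPM against 1.14, 0.896 and 0.903 CPM, a log2 change of 2.97 ± 0.12. UCA1 itself rose by 0.18 ± 0.06 (adjusted p = 0.026). In both pairs the treated and untreated libraries of the LINC member were apart, as the naming rule required.

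LINC01629 (3.03), LINC01126 (2.89), LINC01800 (2.84), LINC02288 (2.69) and LINC01311 (2.54) make up the other 5 of the 10 largest log2 rises. LINC01629 (chr14:76959638-76965802) and LINC02288 (chr14:77041064-77069503) are neighbours near IRF2BPL, a gene for a nuclear RING-finger protein. LINC01629 had 3.50, 2.93 and 3.57 CPM with auxin against 0.307, 0.520 and 0.404 CPM without. LINC02288 had 2.22, 1.64 and 1.98 CPM against 0.307, 0.290 and 0.310 CPM. In all 10 members the auxin effect in DIS3-AID cells exceeded that in control cells past the threshold.

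**Figure D2:**
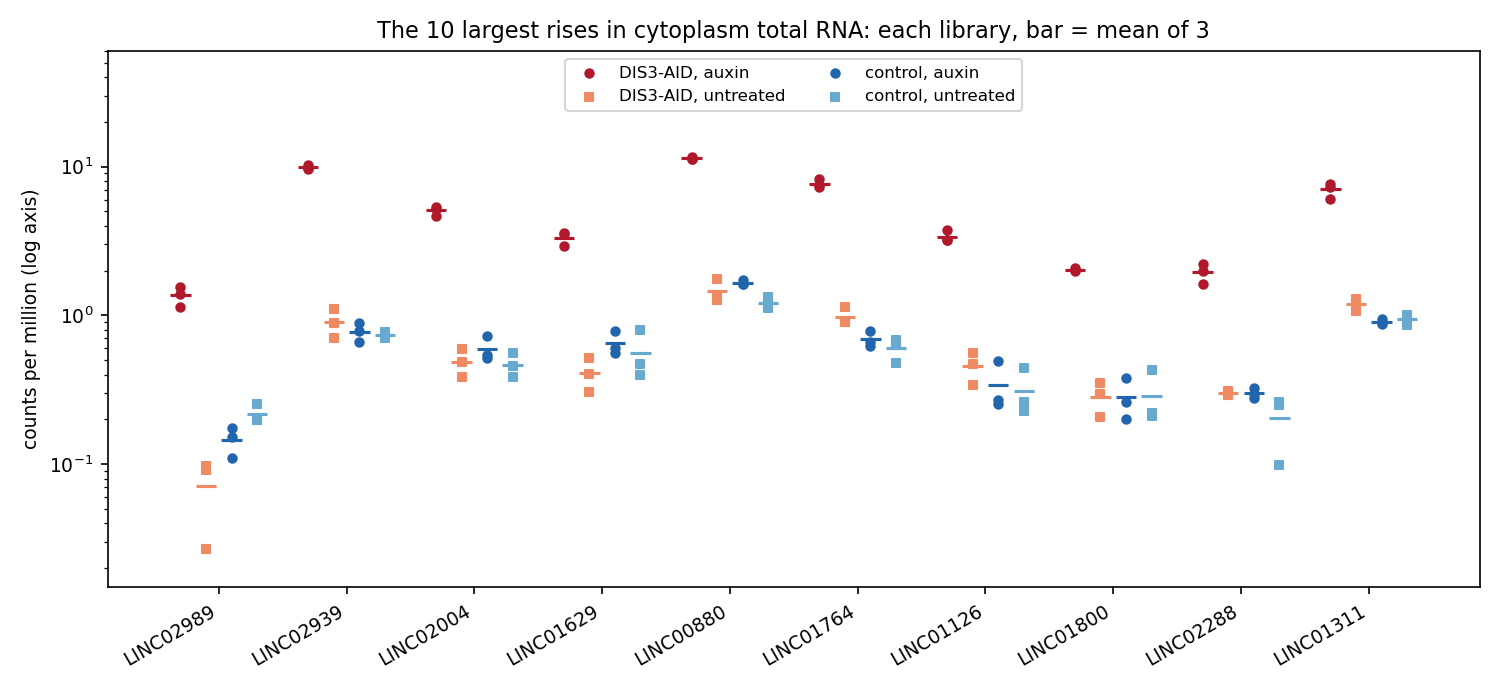
The CPM value of each cytoplasm total RNA library is plotted on a log axis for the 10 members with the largest rises in DIS3-AID cells, in the order auxin-treated DIS3-AID, untreated DIS3-AID, auxin-treated control, untreated control. Bars are means of 3 libraries. The auxin-treated DIS3-AID points of LINC02939 are at 9.68 to 10.3 CPM and those of the other groups at or under 1.10 CPM.

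The 4 falls were small. LINC00659 (-0.38), LINC02035 (-0.36), LINC00674 (-0.19) and LINC01963 (-0.16) had adjusted p of 0.043, 0.013, 0.044 and 0.041. LINC02035, the clearest, had 2.12, 2.61 and 2.21 CPM with auxin against 2.74, 3.03 and 3.07 CPM without. With library sizes alone in place of TMM, which moved the median of all features by 0.10, none of the 4 passed (adjusted p 0.082 to 0.55). The members then split into 140 higher and 0 lower, beside 5581 and 681 of 23027 features. In control cells the same 4 had values between -0.02 and 0.13, and on DIS3-AID chromatin LINC00659 (0.53) and LINC01963 (0.45) rose.

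On chromatin the response was smaller and ran in both directions. The members took 0.749% to 0.786% of chromatin counts in auxin-treated DIS3-AID libraries and 0.701% to 0.742% in untreated ones, and 0.759% to 0.827% in auxin-treated and 0.719% to 0.726% in untreated control libraries, so the share was higher with auxin in both lines. Of 300 tested, 66 rose and 33 fell, beside 11% of all features that rose and 9.54% that fell, with a median log2 change of 0.03 over the members and 0.00 over all features. Rises reached 2-fold in 5 members (1.67%), under the 2.95% of all features, and no fall did, beside 0.34%. The treated and untreated libraries were apart in 63 of the rises and 31 of the falls, beside 10.5% and 9.32% of all features with such a call. With library sizes alone the split was 52 higher and 38 lower, beside 2139 and 3351 of 24966 features.

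On control chromatin 45 members (15%) rose with auxin, beside 9.02% of all features, and 23 (7.67%) fell, near the 7.97% of all features. Of the calls in DIS3-AID cells, 13 of the 66 rises and 6 of the 33 falls were called in the same direction in control cells. The count in control chromatin was 45 without control auxin replicate 1 and 43 without control untreated replicate 3, against 68 with all libraries. The difference between the lines passed the threshold as positive in 38 members and as negative in 39, beside 8.54% and 9.2% of all features; 30 of the 66 rises and 18 of the 33 falls were among them. With library sizes alone that split was 29 and 49, beside 1513 and 3193 of 24966 features. LINC02749 (1.49) and LINC02870 (1.45) had the most positive differences. The most negative were those of LINC01619 (-1.57), LINC02288 (-1.44), LINC02652 (-1.01), LINC02631 (-0.98) and LINC01119 (-0.92). Changes in control cells entered these values: LINC01619 (1.20), LINC02288 (1.08) and LINC02652 (0.93) rose there with auxin, and LINC02749 (-0.86) fell. LINC01119 shares exon bases with LINC01118, whose difference was -1.355.

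LINC02870 (chr10:132444327-132449408, plus strand) had the largest rise on chromatin, with 1.36, 1.38 and 1.56 CPM in auxin-treated and 0.512, 0.496 and 0.724 CPM in untreated DIS3-AID libraries. Its log2 change was 1.33 ± 0.17 (SE, adjusted p = 2.4e-05), against -0.12 ± 0.21 in control cells. LINC01090 (chr2:187712816-188384313, minus strand) had 4.69, 4.92 and 5.42 CPM against 2.26, 2.22 and 2.42 CPM, a log2 change of 1.12 ± 0.14. In both, every auxin-treated library was above every untreated one, as the naming rule required. The other rises among the 10 largest were LINC02939 (1.08), LINC01003 (1.08), LINC01970 (1.04) and LINC01424 (0.97). LINC02709 (0.88), LINC02585 (0.84), LINC01521 (0.84) and LINC01764 (0.82) were the smallest of the 10. LINC02709 also rose by 0.91 in control cells. The difference between the lines did not pass the threshold for LINC02709, LINC02585 and LINC01521.

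LINC02373 (chr12:69449470-69460724, plus strand) had the largest fall on chromatin, with 0.840, 0.945 and 0.712 CPM in auxin-treated and 1.91, 1.51 and 1.48 CPM in untreated DIS3-AID libraries. Its log2 change was -0.99 ± 0.15 (SE, adjusted p = 0.00015), against -0.18 ± 0.13 in control cells. LINC00862 (chr1:200253419-200400705, minus strand) had 12.3, 13.9 and 14.5 CPM against 26.6, 20.03 and 20.2 CPM, a log2 change of -0.73 ± 0.10, and moved by 0.02 ± 0.10 in control cells. These 2 fell in DIS3-AID cells with a difference between the lines that passed the threshold. LINC00310, which lies in an intron of ENSG00000272657, fell by 0.95 in DIS3-AID and by 0.99 in control cells, while the surrounding gene fell by 0.37 and 0.47. LINC02981 (-0.82) and LINC01140 (-0.81), which shares exon bases with ENSG00000267561, complete the 5. The difference between the lines did not pass the threshold for LINC00310 and LINC02981.

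In polyA RNA from the cytoplasm, 49 of the 209 members tested rose and 0 fell after auxin in DIS3-AID cells, beside 13.2% of all features that rose and 3.88% that fell. The median log2 change was 0.19 over the members and -0.01 over all features. At least 2-fold rises were seen in 21 members (10%), near the 9.42% of all features, and no fall reached 2-fold, beside 0.048%. The treated and untreated libraries were apart in 47 of the 49, beside 13% of all features with such a rise and 3.59% with such a fall. In control cells no member was called, beside 0.012% of all features that rose and 0.036% that fell. There 13 of the 209 members had an unadjusted p under 0.05 in edgeR, beside 871 of 16651 features. DESeq2 called 1 member, and edgeR with the replicate block, which pairs libraries here, called 1 as higher. The difference between the lines was positive past the threshold in 22 members and negative in 0, beside 4.85% and 0.985% of all features, and LINC02939 (2.25), LINC02983 (1.99) and LINC00638 (1.86) had the largest values. DESeq2 called 37 members of polyA RNA in DIS3-AID cells as higher and 0 as lower. In edgeR 69 of the 209 had an unadjusted p under 0.05 in either direction, beside 4270 of 16651 features.

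LINC01126 (chr2:43227210-43228855, plus strand), a gene of 1 exon that starts 601 bases from ZFP36L2 on the opposite strand, had the largest polyA rise. It had 0.671, 0.796 and 0.975 CPM in auxin-treated and 0.0711, 0 and 0.118 CPM in untreated DIS3-AID libraries, a log2 change of 3.65 ± 0.59 (SE, adjusted p = 2.3e-05). That value was 3.06 without untreated replicate 2 and 4.37 without untreated replicate 3, control libraries had 0.0978, 0.243 and 0.0385 CPM with auxin and 0.0633, 0 and 0.0311 CPM without, and the difference between the lines did not pass (1.80 ± 1.44, adjusted p = 0.60). LINC01126, LINC02004 and LINC03048 are the 3 of the 49 rises that reached the count minimum only through the auxin-treated DIS3-AID libraries, so they had to be higher there to be tested. LINC01004, which starts 1135 bases from KMT2E, had 5.76, 4.59 and 6.10 CPM against 1.17, 1.93 and 1.77 CPM, a log2 change of 1.76 ± 0.18. LINC02983, with its ATTAAA near the end, had 2.69, 3.26 and 4.69 CPM against 1.21, 0.895 and 0.707 CPM, a log2 change of 1.91 ± 0.27. LINC02983 faces exons of ENSG00000272953 and LINC03073 on the opposite strand. In polyA RNA ENSG00000272953 rose by 2.54 ± 0.52, and LINC03073 was not called (0.68 ± 0.32). LINC01126, LINC01004 and LINC02983 did not overlap between treated and untreated libraries, as the naming rule required. LINC01004 and LINC02983 stayed at or under 1.81 CPM in all control libraries. LINC02004 (2.28), LINC02939 (2.03), LINC00896 (1.76), LINC01311 (1.62), LINC03048 (1.62), LINC01460 (1.56) and LINC01090 (1.52) followed; LINC03048 missed the threshold without DIS3-AID auxin replicate 3 (adjusted p = 0.083) and with DESeq2 (0.051), and LINC02004 was at 3.29 without untreated replicate 1. The difference between the lines was positive past the threshold in 20 of the 49 rises; LINC02004, LINC00896, LINC03048 and LINC01460 were not among them (adjusted p 0.26, 0.061, 0.16 and 0.37).

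Of the 209 members tested in all 3 data sets, 24 (11.5%) were called higher in each, beside 5.19% of the 14341 features tested in all 3. LINC01126 and LINC02004, which are among the 24, reached the count minimum in polyA RNA only through the auxin-treated DIS3-AID libraries. They had to be higher there to be tested, and how many of the 14341 features did so was not counted. The same-numbered total and polyA libraries of the cytoplasm deviated together (correlations of 0.275 to 0.505). In the 24, the smallest rise among sets was 1.12 in LINC01090, 1.08 in LINC02939, 1.02 in LINC01003, 0.96 in LINC01424 and 0.82 in LINC01764. At the other end it was 0.20 in LINC03061. LINC01003 had 3.07, 3.01 and 3.25 CPM in auxin-treated and 0.920, 1.00 and 1.13 CPM in untreated DIS3-AID cytoplasm, and 0.372, 0.359 and 0.469 CPM against 0.211, 0.179 and 0.165 CPM on chromatin. In polyA RNA it had 3.99, 3.72 and 3.97 CPM against 2.203, 1.69 and 1.88 CPM. The treated and untreated libraries of LINC01003 were apart in every set, which the naming rule required on chromatin. Of the 123 cytoplasmic rises, 49 were also called higher on chromatin, 5 were called lower there and 69 were not called there.

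The cytoplasmic response exceeded the chromatin response in many members. The chromatin minus the cytoplasm change was negative past the threshold in 89 of 300 members and positive in 21, beside 11% and 22.1% of all features, and its median was -0.13 over the members and 0.16 over all features. This split depends on scaling. Library sizes alone moved the median of all features by -0.33. They gave 134 negative and 3 positive members, beside 5520 and 379 of 27418 features. LINC02989 (-3.94), LINC02288 (-2.88), LINC02004 (-2.74), LINC01629 (-2.52) and LINC00880 (-2.28) had the largest negative differences. LINC00659 (1.09), LINC01933 (0.96), LINC00562 (0.92), LINC02150 (0.89) and LINC02985 (0.84) had the largest positive ones. With library sizes alone LINC01933, LINC00562, LINC02150 and LINC02985 missed the threshold (adjusted p 0.099 to 0.26). LINC01933 also missed it with DESeq2 (0.059), with DESeq2's size factors (0.069), with the replicate block (0.066) and without any of 8 single libraries (up to 0.22), LINC02985 with DESeq2 (0.051) and without either of 2 libraries (up to 0.13), and LINC02150 without any of 3 (up to 0.098).

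**Figure D3:**
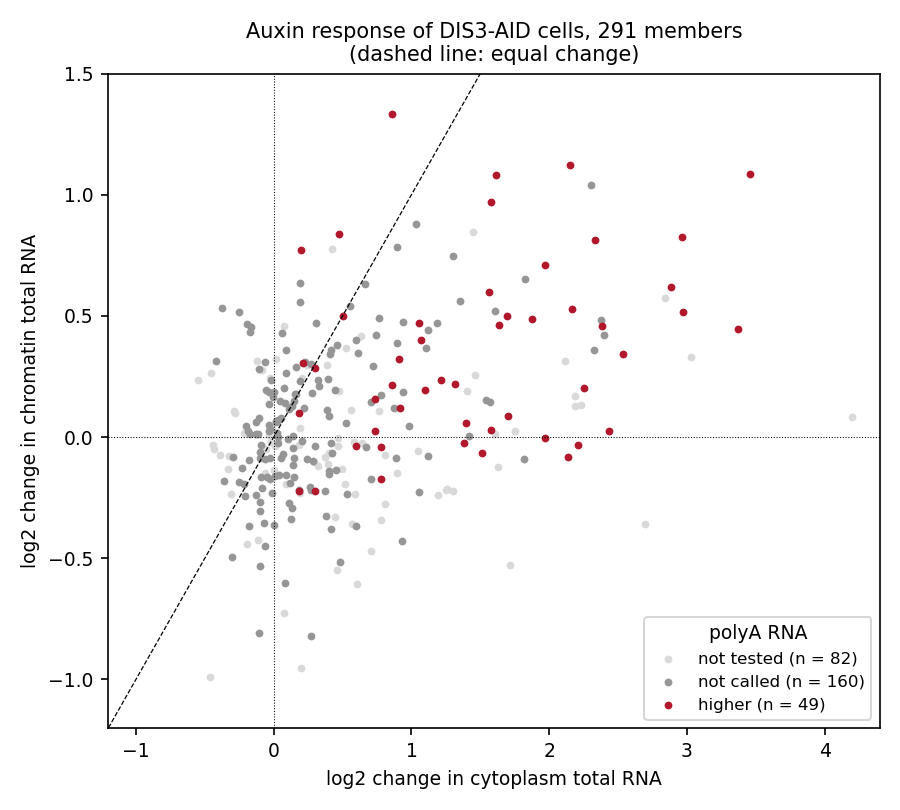
The log2 change with auxin in DIS3-AID cells is plotted for 291 members in cytoplasm total RNA (horizontal) and chromatin total RNA (vertical); the axes differ in scale and the dashed line marks equal change. Red points rose in polyA RNA, dark grey points did not pass there and light grey points were not tested there. The points reach 4.20 on the horizontal and 1.33 on the vertical axis.

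The polyA response was smaller than the total RNA response for some members. The polyA minus the total RNA change was negative past the threshold in 33 of 274 members and positive in 2, beside 3% and 5.29% of all features; with the replicate number as a block, which pairs the libraries here, it was negative in 43 and positive in 12. The median was 0.02 over the members and 0.16 over all features, and library sizes alone moved the median of all features by -0.16. LINC01204 had 1.02, 1.18 and 1.01 CPM in auxin-treated and 0.782, 0.689 and 1.14 CPM in untreated polyA libraries of DIS3-AID cells. In total RNA it had 4.05, 4.18 and 3.45 CPM against 0.761, 0.811 and 0.755 CPM, a difference between the responses of -1.88 ± 0.26. The total RNA libraries of LINC01204 were apart and the polyA libraries overlapped. LINC00471 (-1.80) and LINC01730 (-1.83) went the same way, and LINC01800 (-3.43) and LINC01629 (-2.67) did so at polyA levels of 0.542 CPM or less. Leaving out 1 untreated polyA library of DIS3-AID cells ended both calls, LINC01800 without replicate 1 (-2.57, adjusted p = 0.39) and LINC01629 without replicate 2 (-2.36, adjusted p = 0.11). LINC01800 moved to -4.22 without untreated replicate 3 and to -4.08 without auxin replicate 3, and LINC01629 to -3.50 without auxin replicate 3. The 2 positive ones were LINC00674 (0.56) and LINC03061 (0.31), and both missed the threshold under other settings.

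The counts were also read by position in the genome. Of the 18 divergent members, 14 rose in cytoplasm total RNA (median log2 change 0.75), 10 rose on chromatin (0.33) and 7 of 16 tested rose in polyA RNA (0.64), and 0 fell in any set. Among the 226 members of no special context that were tested in cytoplasm, 90 rose and 4 fell (0.30), and on chromatin 50 of 234 rose and 22 fell (0.05). Of the 39 that share exon bases with another gene, 17 rose in cytoplasm (43.6%) and 5 rose (12.8%) and 9 fell on chromatin. Over all features 21.1% rose and 13.2% fell in cytoplasm, and 11% rose and 9.54% fell on chromatin, near the 12.8%. In polyA RNA 13.2% of all features rose and 3.88% fell. No test of the difference between these classes was made, since the members were chosen with results known.

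Among the divergent members, LINC01126 rose in cytoplasm by 2.89 ± 0.21 beside ZFP36L2, whose protein binds AU-rich elements and promotes mRNA decay. LINC01135, which starts 801 bases from JUN, a subunit of the AP-1 transcription factor, had 3.42, 3.53 and 3.95 CPM in auxin-treated and 0.625, 0.799 and 1.08 CPM in untreated DIS3-AID cytoplasm. On chromatin it had 6.61, 7.11 and 7.31 CPM against 7.27, 7.78 and 7.16 CPM, so that its libraries were apart in cytoplasm and overlapped on chromatin. LINC01424, beside the ubiquitin-conjugating enzyme gene UBE2G2, had 1.66, 2.36 and 1.96 CPM against 0.761, 0.617 and 0.593 CPM in cytoplasm and 4.58, 5.99 and 5.28 CPM against 2.46, 2.7 and 2.93 CPM on chromatin. LINC02918 beside the importin gene IPO13 (1.605), LINC02585 beside the cadherin gene CELSR3 (1.45) and LINC01134 beside C1orf174 (1.12) also rose in cytoplasm.

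The protein-coding partners were called at about the share of all coding genes. Counting 2 further members that start within 2 kb of a coding gene but share exon bases, 16 rose in cytoplasm, and of their 16 partners 0 rose, 3 fell and 13 were not called, with a median log2 change of -0.13; among all protein-coding genes tested there 7.24% rose and 20.1% fell, with a median of -0.10. JUN fell by 0.33 where LINC01135 rose by 2.14. On chromatin 12 rose and none of the 12 partners was called in edgeR (median -0.05). For the 107 other cytoplasmic rises, the nearest coding gene was called higher in 10, lower in 14 and neither in 66, and was not tested in 17, shares that are read against the same 7.24% and 20.1%.

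Among the members, longer genes had higher chromatin minus cytoplasm levels in untreated control cells. This is a description only, since counts of these libraries were part of the ranking that chose the members. In untreated control cells the 300 members had a median chromatin minus cytoplasm log2 level of 1.93, against 0.10 for all features; 220 were higher on chromatin and 62 lower, beside 46.2% and 44% of all features, and since the ranking drew mainly on chromatin counts nothing is read from that share. Among the members the median was -0.16 in the 100 shortest genes, 2.31 in the middle 100 and 3.26 in the 100 longest, and it was -0.84 in genes of 1 exon, 0.85 in genes of 2 and 2.35 in genes of 3 or more. Library sizes alone moved the median of all features by 0.66. They gave 240 higher and 45 lower members, beside 15260 and 9554 of 27418 features. After auxin in DIS3-AID cells, 36 of the 100 shortest rose on chromatin and 2 fell, beside 11% and 9.54% of all features. The middle 100 had 19 rises and 15 falls and the longest 100 had 11 and 16, the 11 being at the share of all features. On control chromatin the same groups had 12, 19 and 14 rises and 4, 8 and 11 falls, beside 9.02% and 7.97% of all features.

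**Figure D4:**
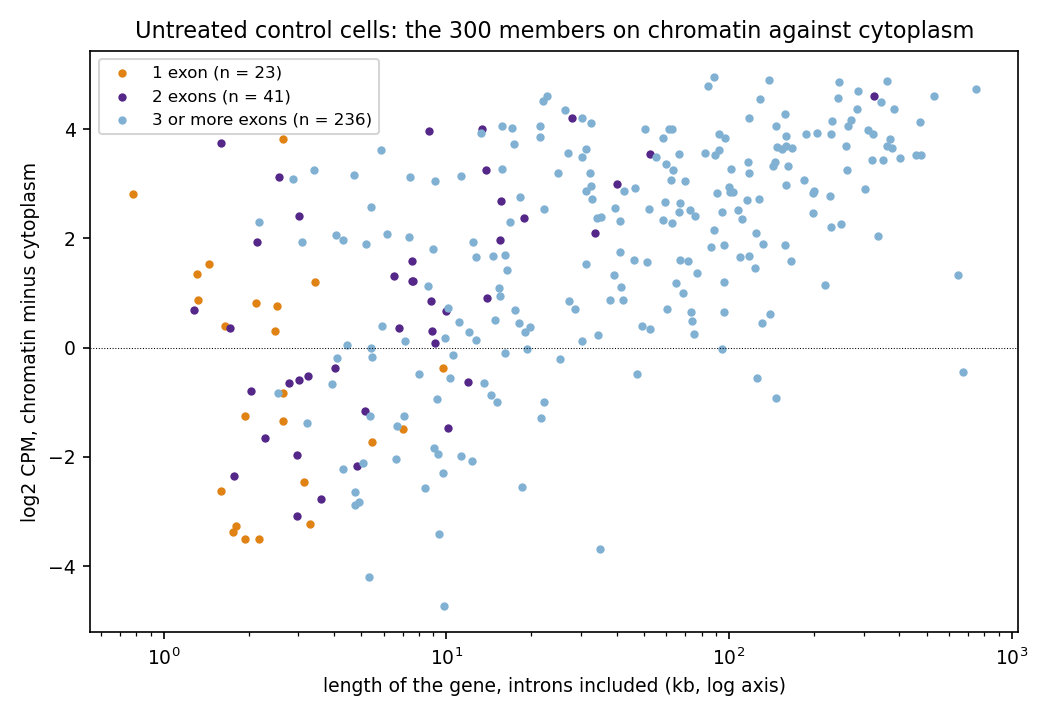
The log2 level on chromatin minus that in cytoplasm of untreated control cells is plotted against gene length in kb on a log axis for the 300 members, coloured by the largest number of exons in a transcript. Points above 0 were higher on chromatin. The medians by length are -0.16, 2.31 and 3.26, and genes of 1 exon have a median of -0.84.

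At the chromatin end stood LINC02542, with 8.89, 7.87 and 8.47 CPM on chromatin and 0.252, 0.278 and 0.292 CPM in cytoplasm of untreated control cells (both sets scaled together), a log2 difference of 4.95 ± 0.14. LINC02653 (4.89), LINC02742 (4.88), LINC02945 (4.86) and LINC02398 (4.79) were next, the last being at 5.48 without cytoplasm replicate 2. At the cytoplasmic end stood LINC00460, an RNA reported as raised in several carcinomas, with 0.0829, 0.0149 and 0.103 CPM on chromatin and 2.22, 2.07 and 2.08 CPM in cytoplasm, a log2 difference of -4.73 ± 0.23. LINC02985 (-4.20), LINC02210 (-3.68), LINC02894 (-3.51) and LINC01521 (-3.51) followed, and LINC02210 shares exon bases with the read-through gene LINC02210-CRHR1. Grouped by this difference in control cells, 51 of the 100 most cytoplasmic members rose in DIS3-AID cytoplasm, beside 21.1% of all features. In the middle 44 of 99 tested rose, and among the most chromatin-bound 28 of 92 tested. The median log2 changes were 0.31, 0.40 and 0.26 in that order, so the middle group had the largest.

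Levels between genes are compared per kb of exon, in untreated control cells. LINC01399 was highest in cytoplasm total RNA at 25.4 ± 0.91 CPM per kb (SD, n = 3), followed by LINC02935 (21.0 ± 1.35), LINC01405 (21.0 ± 0.17), LINC00513 (14.9 ± 0.42) and LINC03057 (13.6 ± 0.77). LINC02935 and LINC01405 did not differ beyond their spread. On chromatin LINC02935 led at 432.6 ± 18.9 CPM per kb, followed by LINC02832 (239.3 ± 5.82), LINC02008 (223.0 ± 18.1), LINC02438 (219.8 ± 10.1) and LINC01876 (210.4 ± 9.57), and neighbours in this order after LINC02935 differed by less than the larger of their SDs. In polyA RNA the order was LINC01405 (29.8 ± 1.99), LINC03057 (24.1 ± 2.61), LINC00513 (23.9 ± 0.26), LINC03061 (13.6 ± 0.69) and LINC01234 (12.8 ± 0.19). The members' median was 0.503 CPM per kb in cytoplasm, 2.16 on chromatin and 0.399 in polyA RNA.

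Of the 5 members highest per kb in cytoplasm, LINC00513 and LINC02935 (0.28) rose there after auxin in DIS3-AID cells, while LINC01399 (0.14), LINC01405 (0.05) and LINC03057 (0.03) did not pass. LINC00513, an RNA reported to act in interferon signalling, had 85.9, 86.2 and 81.8 CPM in auxin-treated and 32.5, 34.6 and 32.3 CPM in untreated DIS3-AID cytoplasm, a log2 change of 1.35 ± 0.05. In control cytoplasm it had 24.9, 23.0 and 24.5 CPM with auxin and 24.3, 23.4 and 24.7 CPM without. In polyA RNA it did not pass (0.16 ± 0.06, adjusted p = 0.10). LINC02832, first in the ranking, had 134, 131 and 135 CPM in auxin-treated and 51.0, 54.8 and 55.1 CPM in untreated DIS3-AID cytoplasm, a log2 change of 1.31 ± 0.06, and rose by 1.22 ± 0.08 in polyA RNA. On chromatin LINC02832 rose by 0.22 ± 0.07 in DIS3-AID and by 0.47 ± 0.07 in control cells.

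Of 18 often-studied LINC genes that were listed, 11 were members. In cytoplasm total RNA 6 of the 11 rose and 0 fell, on chromatin 4 rose and 1 fell, and in polyA RNA 1 rose and 0 fell, beside 21.1%, 11% and 13.2% of all features that rose; with 11 genes, 1 rise in polyA RNA is near that share. LINC01138 had 30.2, 31.0 and 28.97 CPM in auxin-treated and 10.3, 10.6 and 10.2 CPM in untreated DIS3-AID cytoplasm, a log2 change of 1.54 ± 0.06, with values of 0.15 ± 0.07 on chromatin and 0.29 ± 0.11 in polyA RNA that did not pass. LINC01089, also called LIMT and described as a suppressor of invasion in breast cells, rose by 1.69 ± 0.08 in cytoplasm, by 0.50 ± 0.09 on chromatin and by 0.58 ± 0.12 in polyA RNA. It rose by 0.52 ± 0.09 on control chromatin too. LINC00511, described as growth-promoting in several tumours, rose by 0.60 ± 0.06 in cytoplasm and by 0.40 ± 0.08 on chromatin, where it rose by 0.65 ± 0.08 in control cells. LINC00460, LINC00294, LINC00342, LINC00467 and LINC00662 had cytoplasmic values between -0.25 and 0.13 that did not pass. Among the 6 rises, LINC01138, LINC01089, LINC00941 and LINC00339 share exon bases with another gene on the same strand. Reads there cannot be assigned to either gene alone.

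The untreated lines were compared as well. Untreated DIS3-AID cells had 54 members higher and 10 lower than untreated control cells in cytoplasm total RNA, beside 9.67% and 12.4% of all features. On chromatin 74 were higher and 61 lower, beside 15.2% and 17.4%. With library sizes alone the chromatin split was 88 and 51, beside 4788 and 3359 of 24966 features. In polyA RNA 15 of 209 were higher (7.18%) and 7 lower (3.35%), near or under the 6.22% and 5.65% of all features. Of the 123 cytoplasmic rises with auxin, 29 were already higher in the untreated clone. LINC02058 (chr5:92907180-92939591) had 4.196, 3.73 and 3.97 CPM on chromatin of untreated DIS3-AID cells and 0.324, 0.528 and 0.535 CPM in untreated control cells, a log2 difference of 3.11 ± 0.15. LINC02112, which shares exon bases with the taste receptor gene TAS2R1, had 3.81, 4.33 and 3.87 CPM against 14.6, 14.6 and 14.2 CPM, a difference of -1.85 ± 0.08. On chromatin LINC02652 (1.34), LINC01429 (1.31) and LINC02616 (1.14) were also among the 5 most raised in the clone, and LINC01162 (-1.42), LINC02653 (-1.19), LINC01629 (-1.14) and LINC01725 (-1.13) among the 5 most lowered. In cytoplasm total RNA these were LINC02058 (2.09), LINC02542 (1.39), LINC00452 (1.36), LINC02728 (1.25) and LINC01030 (1.14) on the higher side, and LINC02989 (-1.56), LINC02133 (-0.80), LINC00944 (-0.68), LINC01232 (-0.62) and LINC01270 (-0.46) on the lower. In polyA RNA LINC00452 (1.74), LINC02535 (1.26), LINC00431 (0.82) and LINC01503 (0.81) were higher, and LINC00944 (-1.10), LINC02562 (-0.84), LINC01232 (-0.72), LINC01963 (-0.47) and LINC00482 (-0.47) lower. Leaving out 1 library ended the cytoplasm calls of LINC01030, LINC02133 and LINC00944 (adjusted p up to 0.060, 0.11 and 0.082) and the polyA calls of LINC00944, LINC02562, LINC01232 and LINC00482 (up to 0.15, 0.078, 0.059 and 0.23); LINC00482 also missed the threshold with DESeq2 (0.086) and library sizes alone (0.057). LINC02058 was at 2.79 in cytoplasm and LINC00452 at 2.33 in polyA RNA without control replicate 1. LINC00173 was higher in all 3 sets, by 1.03 in cytoplasm, 1.05 on chromatin and 0.88 in polyA RNA. DIS3 mRNA was itself lower in untreated DIS3-AID than in untreated control cells, with a log2 difference of -0.85 in cytoplasm and -0.70 on chromatin. The tag on DIS3 and other differences of this 1 clone cannot be told apart in this comparison.

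On control chromatin the largest rise with auxin was that of LINC01619, which had 82.6, 92.1 and 74.8 CPM with auxin and 40.4, 30.7 and 37.4 CPM without, a log2 change of 1.20 ± 0.12. It shares exon bases with BTG1, an anti-proliferative gene, which rose by 1.14 ± 0.15. In DIS3-AID chromatin LINC01619 fell, with a log2 change of -0.37 ± 0.12 (adjusted p = 0.045), and the difference between the lines was -1.57 ± 0.17. LINC02288 (1.08), LINC02652 (0.93), LINC02709 (0.91) and LINC01429 (0.90) rose next, and LINC01068 (-1.39), LINC00310 (-0.99), LINC01250 (-0.89), LINC02749 (-0.86) and LINC01433 (-0.75) fell most. LINC01068 had 0.811, 0.710 and 0.776 CPM with auxin and 2.08, 1.95 and 1.98 CPM without, with no overlap.

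The members were set beside other non-coding classes. In cytoplasm total RNA of DIS3-AID cells, 363 of 441 divergent transcripts (-DT genes) rose and 0 fell, with a median log2 change of 1.41. Among antisense lncRNAs (-AS genes) 536 of 840 rose and 2 fell (0.81). Of the 168 other LINC genes that passed the filter, 96 rose and 2 fell (1.31). How many of them reached the count minimum only through auxin-treated DIS3-AID libraries was not counted. Such genes had to be higher there to be tested, so nothing is read from this share against that of the members. All other lncRNAs stood nearest the members there, with 37.9% higher and a median of 0.31, against 42.3% and 0.33 for the members. Of all features 21.1% rose there. On chromatin 134 of 390 -DT genes, 202 of 860 -AS genes and 22 of 297 other LINC genes (7.41%) rose, beside 11% of all features. In polyA RNA 140 of 314, 158 of 631 and 9 of 55 rose, beside 13.2%. These are counts set side by side, without a test between classes.

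**Figure D5:**
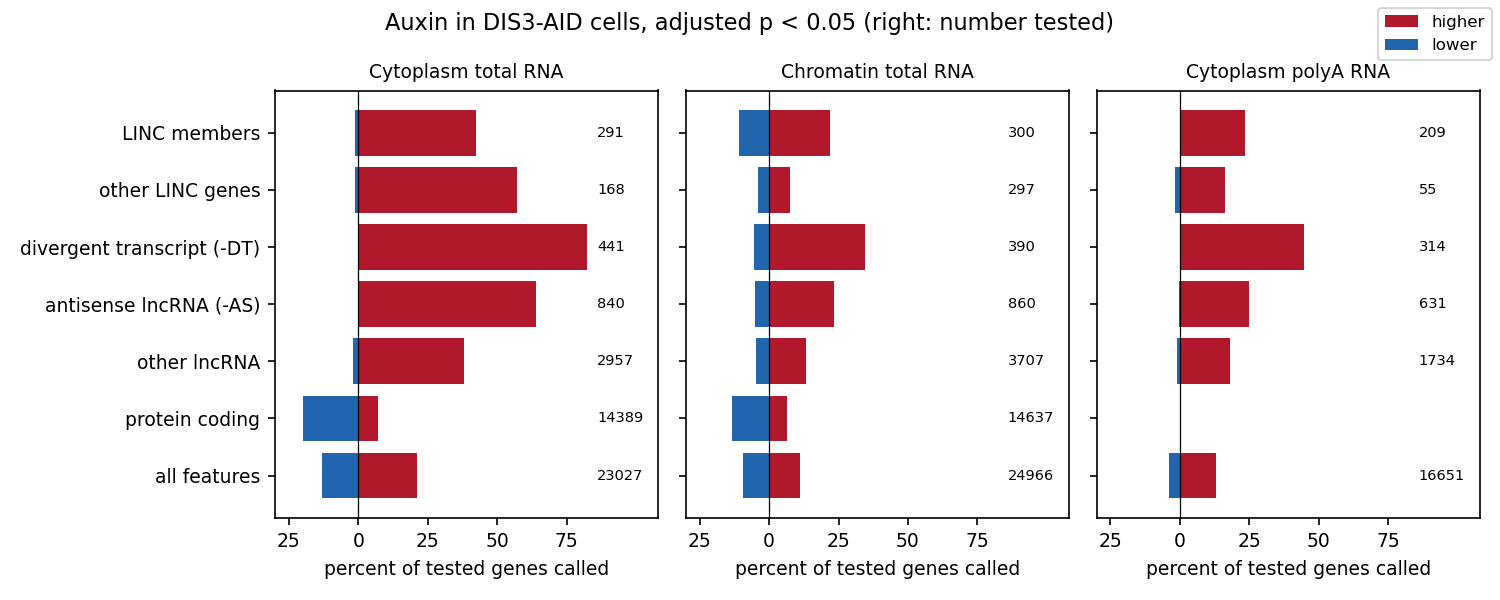
The share of tested genes called higher (red, to the right) and lower (blue, to the left) after auxin in DIS3-AID cells is plotted by gene class in the 3 data sets, with the number tested at the right of each panel. Protein-coding genes are left out of the polyA panel. In cytoplasm the LINC members stand at 42.3% higher, between all features at 21.1% and the -DT genes at 82.3%.

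The genes of the decay pathway itself changed little. Of the 9 exosome core genes EXOSC1 to EXOSC9, EXOSC6 rose (0.26) and EXOSC1 fell (-0.18) in cytoplasm after auxin in DIS3-AID cells and 0 were called on chromatin, with log2 values between -0.18 and 0.26. The catalytic genes DIS3, DIS3L and EXOSC10 were not called in either fraction. Of 10 adaptor and helicase genes, MTREX, RBM7, ZCCHC8, ZFC3H1, PABPN1, ZC3H3, TENT4B, ZCCHC7, C1D and MPHOSPH6, ZFC3H1 rose (0.21) and RBM7 and TENT4B fell (both -0.17) in cytoplasm, and 0 were called on chromatin in edgeR.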

How the data were processed

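The starting material was the deposited tables of raw read counts per feature, 1 per library and 36 in all, which the authors made on hg38; STAR 2.7.3a, Cufflinks 2.2.1 and featureCounts 2.0.0 are named in the submitters' processing notes without roles or settings. Ensembl identifiers were mapped to current symbols (57392 of 59607 features of the total RNA tables), and positions and exons were taken from GENCODE 29, where 72 of the 300 members carry another name. The members, gene lists and the rule for named genes were chosen with earlier results of these data known. The named genes were the 10 largest rises and 5 largest falls with auxin in DIS3-AID cells in each data set (called, with libraries not overlapping), the 5 largest called in each direction of the other comparisons, the 5 highest per kb in untreated control cells, the 3 genes on either side of the ranking limit, and a list of 18 often-studied LINC genes; divergent members were also named, after their values were seen.

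Each data set was filtered with filterByExpr (minimum count 10), scaled by TMM and fitted over all 12 libraries in edgeR 4.0.16 (R 4.3.3, limma 3.58.1) with robust quasi-likelihood F tests and Benjamini-Hochberg adjustment over all 23027, 24966 and 16651 features tested in cytoplasm total, chromatin total and polyA RNA. Comparisons across data sets were fitted over both sets together (27418 and 18669 features). The 15 comparisons were also run in DESeq2 1.42.0, and the scripts were tested on simulated data. Replicate libraries differed by more than counting error, with a chi-square per degree of freedom of at least 2.61, so none was a duplicate. Same-numbered libraries deviated together (correlation over 0.1 in every pair, over features of 10 CPM or more) for auxin in control cytoplasm (0.234 to 0.437), auxin in control polyA RNA (0.120 to 0.235) and the polyA minus total RNA response (0.275 to 0.505); the numbers come from the sample titles. The 16651 polyA features include 10083 protein-coding genes, which entered the fit and the values over all features and are not reported as a class. Python 3.11.15 was used for the summaries and figures.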

Additional observations from a re-analysis of the deposited data

Results flagged for a closer look

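These results were flagged because the auxin effect differed between DIS3-AID and control cells in edgeR's test of the difference itself. The number of members concerned was 98 in cytoplasm total RNA, 77 on chromatin and 22 in polyA RNA. In cytoplasm total RNA the difference, as a log2 value of DIS3-AID minus control, was 4.77 for LINC02989, 3.36 for LINC02939, 3.07 for LINC02004, 2.79 for LINC01629 and 2.53 for LINC00880. It was 2.75 for LINC01764, 2.81 for LINC01126, 2.90 for LINC01800, 2.19 for LINC02288 and 2.58 for LINC01311.

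On chromatin the difference was 1.45 for LINC02870, 0.72 for LINC01090, 1.02 for LINC02939, 1.22 for LINC01003 and 0.75 for LINC01970. It was 1.14 for LINC01424 and 1.08 for LINC01764, and it was negative for LINC02373 (-0.82), LINC01140 (-0.51) and LINC00862 (-0.74). In polyA RNA it was 2.25 for LINC02939, 1.99 for LINC02983, 1.72 for LINC01004, 1.68 for LINC01311 and 1.02 for LINC01090. The chromatin difference of LINC01003 missed the threshold under DESeq2 (adjusted p = 0.13), without the low-count filter (0.08), with the replicate block (0.061) and without several single libraries.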

How the results depend on the processing

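The counts of called members stayed within 1.5 times the reported count under other scalings, DESeq2, no low-count filter, the replicate block, fits of the compared groups alone, other choices of the 300 members and leaving out a library, with these exceptions. For auxin in control cytoplasm, reported at 0, the count was 5 without the filter, 4 with DESeq2 and 4 with the replicate block. For auxin in control polyA RNA, reported at 0, it was 1 with each of these 3 settings and 0 to 1 when a library was left out. For auxin on control chromatin it was 43 to 78 when a library was left out, against 68. For the polyA minus total RNA response it was 55 with the replicate block, against 35. The block moved no other count past that limit. Ranking the members by untreated control counts gave 119 calls for auxin in DIS3-AID cytoplasm, against 127.

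Named genes were recomputed 1748 times in all: 1616 kept their call, 132 lost it and 0 turned round. A call was lost under at least 1 setting for 4 of the 7 named for the polyA minus total RNA response, 4 of 10 for the chromatin minus cytoplasm response, 4 of 14 for auxin in DIS3-AID cytoplasm (the 4 falls), 1 of 10 in DIS3-AID polyA RNA (LINC03048) and 0 of 15 on DIS3-AID chromatin. For the difference in auxin effect between the lines it was 2 of 8 in cytoplasm, 1 of 10 on chromatin and 1 of 5 in polyA RNA (LINC00638, with DESeq2, adjusted p = 0.060). For the untreated lines it was 3 of 10 in cytoplasm, 0 of 10 on chromatin and 4 of 10 in polyA RNA, and it was 0 of 10 both for auxin on control chromatin and for chromatin against cytoplasm. In polyA RNA 91 of 300 members had too few counts to be tested; 97 of the 100 most cytoplasmic members and 37 of the 100 most chromatin-bound were tested there.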
